A study of Homo sapiens with 38 samples.

Results

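The tumor necrosis factor (TNF) group followed here comprised 10 genes, 4 coding for ligands (TNF, LTB, TNFSF10 and TNFSF15) and 6 for receptors (TNFRSF1A, TNFRSF1B, TNFRSF9, TNFRSF10B, TNFRSF12A and TNFRSF21). Their probes were found through the transcript accession given for each spot, which yielded 12 probes of the 34127 on the array and 10 genes of the 19720 that could be named. TNFSF10 and TNFRSF1B had 2 probes each, and the others had 1. Where a gene had several probes, the brighter one on average represented it, and the other is described beside it.

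Cells of A549, an established line of human alveolar epithelium, were exposed in serum-free medium to fumed silica nanoparticles (NPs), and total RNA was labeled with a single dye, Cy3, and read on 38 arrays. At 24 h, 0.1 and 1.0 μg/cm2 (4 arrays each) shared 4 control arrays, 1.5 μg/cm2 (4 arrays) had 4 controls of its own, and 3.0 and 6.0 μg/cm2 (3 arrays each) shared 3 controls. At 72 h, 3.0 and 6.0 μg/cm2 (3 arrays each) shared 3 controls of that time. Every control was A549 cells in serum-free medium without NPs, so all groups were 1 cell line, and the labels number biological replicates up to 4 where the protocol speaks of 3 cultures, so that p-values may measure partly technical spread.

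The 72 h exposed arrays carry 72 h in their source name and 24 h in their description, and the source name was used. All of them were scanned on 1 day and their controls on another, so scan day and exposure cannot be told apart at 72 h. The 75th percentile of the processed signal ranged from 740.422 to 3201.87 over the arrays, between 57.878% and 75.279% of the spots were well above background, and 0 were saturated. Keratins KRT8, KRT18 and KRT19 with CDH1 and EPCAM, markers of epithelium, were well above background on all 38 arrays. Of the 8 alveolar type II markers, ABCA3, NAPSA and SFTPC were so on all 38, SFTPB on 2 and NKX2-1 on 1. Of 5 leukocyte markers, CD14, CD68 and PTPRC were well above background on all 38 arrays and CD3E on 7. In bulk RNA, fewer cells of a type and less RNA per cell cannot be told apart.

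TNF family ligands are trimers, on the cell surface or shed from it, that gather their receptors into clusters. Receptors with a death domain, such as TNFRSF1A and TNFRSF10B, can recruit caspases, while receptors that bind TRAF adaptors chiefly turn on NF-kB and kinase cascades. In airway and alveolar epithelium the family is known for its part in inflammation and in the removal of damaged cells.

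Promoters are shown first for the 4 members that passed the test at 1 or more of the higher doses and whose RefSeq entry starts at the end of the annotated gene. They are the 250 bases before the transcript start, from RefSeq on build GRCh38.p14, written 5′ to 3′ along the gene with matches to any of 4 motifs in capitals. The motifs were the NF-kB consensus (named kappaB here), the AP-1 site TGANTCA, the core of the interferon-stimulated response element and the TATA box TATAAA, searched on both strands.
TNF, chr6:31575315-31575564, plus strand, with a TATA box: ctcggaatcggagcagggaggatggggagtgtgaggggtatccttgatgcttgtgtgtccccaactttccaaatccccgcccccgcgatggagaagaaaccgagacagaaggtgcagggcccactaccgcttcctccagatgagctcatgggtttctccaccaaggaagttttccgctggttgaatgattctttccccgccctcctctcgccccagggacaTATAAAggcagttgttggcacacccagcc
LTB, chr6:31582426-31582675, minus strand, with a kappaB match: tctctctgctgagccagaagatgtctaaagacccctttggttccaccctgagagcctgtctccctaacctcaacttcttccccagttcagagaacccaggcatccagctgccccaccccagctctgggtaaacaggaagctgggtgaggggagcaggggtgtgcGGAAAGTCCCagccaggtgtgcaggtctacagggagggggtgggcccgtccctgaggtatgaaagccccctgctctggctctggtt
TNFSF10, chr3:172523431-172523680, minus strand, with an interferon-response core and a TATA box: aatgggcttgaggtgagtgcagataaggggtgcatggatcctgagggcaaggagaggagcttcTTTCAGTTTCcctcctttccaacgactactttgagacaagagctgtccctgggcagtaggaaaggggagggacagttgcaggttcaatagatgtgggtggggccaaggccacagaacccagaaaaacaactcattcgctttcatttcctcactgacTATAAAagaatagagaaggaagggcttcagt
TNFRSF9, chr1:7940840-7941089, minus strand, with overlapping kappaB matches on both strands and an AP-1 site: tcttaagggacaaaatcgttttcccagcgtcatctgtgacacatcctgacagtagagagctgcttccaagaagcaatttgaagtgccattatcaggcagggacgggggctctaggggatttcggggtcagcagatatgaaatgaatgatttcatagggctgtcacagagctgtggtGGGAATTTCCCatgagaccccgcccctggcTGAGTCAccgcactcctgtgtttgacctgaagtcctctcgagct

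Among 27303 promoters of the same length, 1 per gene symbol, 9.57% held a kappaB match, 6.6% an AP-1 site, 3.07% an interferon-response core and 11.1% a TATA box. Of the 8 members with an entry, LTB and TNFRSF9 held a kappaB match, TNFSF15 and TNFRSF9 an AP-1 site, TNFSF10 and TNFRSF1B an interferon-response core, and TNF and TNFSF10 a TATA box. The entry for TNFSF15 starts inside the annotated gene and is not printed. TNFRSF1A and TNFRSF21 held none of these letters in this window, and TNFRSF10B and TNFRSF12A were not matched. A match is a run of letters and not a measured site.

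Levels below are log2 of the processed signal with the array's 75th percentile set to 0, and a change is the difference of 2 group means on that scale. A member was called where limma gave an adjusted p under 0.05 (Benjamini-Hochberg over all probes tested) and the fold change was at least 1.5. A probe entered a test where all arrays of 1 or more of the compared groups had it well above background, so one that entered only through its bright group had to differ. Levels are not compared between members, since probes differ in brightness.

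At 24 h with 6.0 μg/cm2, 5 of the 10 members were called, among 9 tested. TNF, TNFRSF9 and TNFRSF12A rose, and TNFSF10 and TNFSF15 fell. Over all probes 9.32% were called in this comparison, 3.95% higher and 5.37% lower. At 72 h with 6.0 μg/cm2, 5 were called among 8 tested, LTB, TNFRSF9 and TNFRSF12A higher and TNFSF10 and TNFSF15 lower, where 17.1% of all probes were called, 6.63% higher and 10.5% lower. With 3.0 μg/cm2, TNFRSF9 was the 1 member called at 24 h, among 8 tested (2.88% of all probes, 1.49% higher and 1.38% lower). At 72 h with 3.0 μg/cm2, TNFRSF12A was higher and TNFSF10 and TNFSF15 lower, among 6 tested (5.91% of all probes, 2.1% higher and 3.8% lower). TNF and TNFRSF9 at 24 h, and LTB and TNFRSF9 at 72 h, entered only through exposed groups, so these counts are no support for a rise. TNFSF10 with 6.0 μg/cm2 at both times, and TNFSF15 with 6.0 μg/cm2 at 72 h, entered only through the controls. Their counts are likewise no support for a fall. The median change over the members tested was 0.12 and 0.18 at 24 h and -0.19 and 0.15 at 72 h with 3.0 and 6.0 μg/cm2, where that over all probes tested lay between -0.03 and 0.04. Except with 3.0 μg/cm2 at 72 h, these medians include members that entered through 1 group only. The members tested also differ between comparisons, so the medians are no support for a shift.

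**Figure D1:**
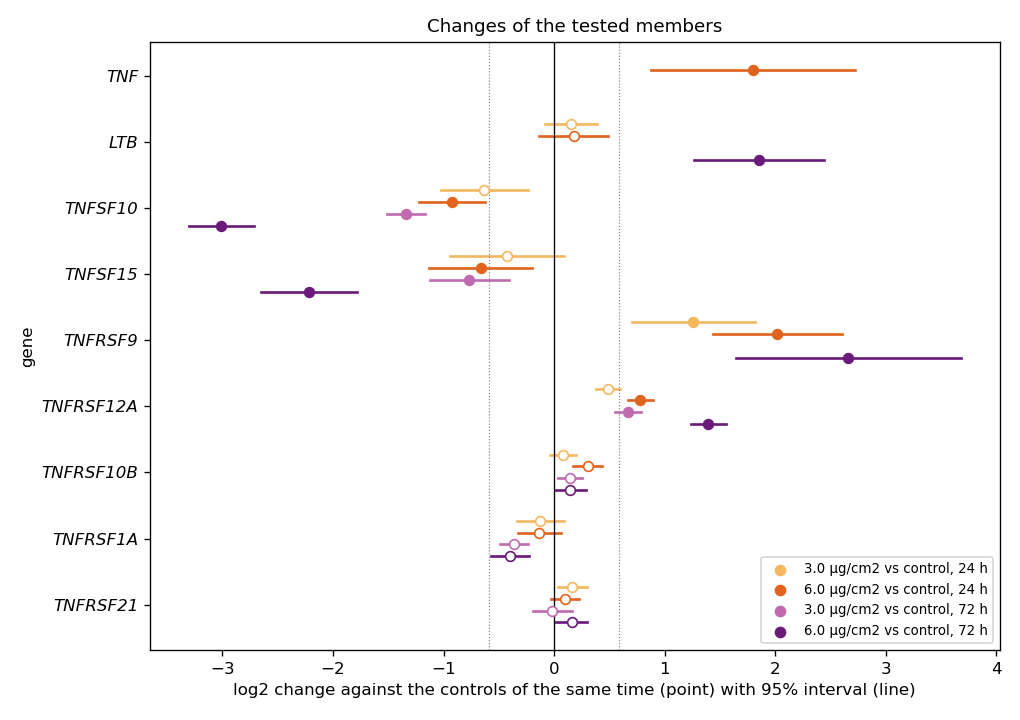
Log2 change of each tested member against the controls of the same time (x axis, log2 scale), with its 95% interval from limma as a line. Filled points were called, open points were not, and dotted lines mark a fold change of 1.5. TNFSF10 and TNFSF15 lie to the left of 0 in all 4 comparisons and TNFRSF12A to the right.

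TNF, the ligand that gives the family its name and a classical trigger of NF-kB, was close to background throughout. Its probe was well above background on 5 of the 38 arrays. In the 24 h controls its levels were -8.79, -7.18 and -7.73, none well above background. With 3.0 μg/cm2 they were -7.89, -7.46 and -6.09, of which the last was well above background, and with 6.0 μg/cm2 they were -6.25, -6.22 and -5.85, all well above it. The 6.0 μg/cm2 arrays lay above every control array, while those at 3.0 μg/cm2 overlapped the controls. The mean was -6.10 ± 0.22 (SD, n = 3) with 6.0 μg/cm2 and -7.90 ± 0.82 (SD, n = 3) in the controls. Since no control was above background, TNF was at least 1.6-fold higher with 6.0 μg/cm2, where the bound takes, for each dim array, the higher of its own level and the lowest level of any probe well above background there. The fitted change was 1.80 with a standard error (SE) of 0.39 (limma, adjusted p = 0.0135). In limma fits the call was lost without 6.0 μg/cm2 replicate 3 (change 1.67, adjusted p = 0.0523), with normexp, a model-based background correction (0.63, adjusted p = 0.257), and in spot intensities without background subtraction (0.21, adjusted p = 0.415). It was also lost with the methods' t-test.

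At 72 h no array of any group had TNF well above background, and it was not tested. Its levels were -8.05, -6.52 and -7.38 in the controls, -7.13, -8.30 and -7.59 with 3.0 μg/cm2, and -6.83, -7.34 and -7.20 with 6.0 μg/cm2. The 3 groups overlapped.

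LTB, whose product anchors lymphotoxin heterotrimers to the membrane, lies next to TNF on chromosome 6 and moved in another way. At 24 h it was well above background on all arrays of this set, at -3.76, -3.58 and -3.79 in the controls, -3.48, -3.74 and -3.45 with 3.0 μg/cm2, and -3.38, -3.82 and -3.41 with 6.0 μg/cm2. The groups overlapped, and the change was 0.18 (SE 0.13) with 6.0 μg/cm2 (limma, adjusted p = 0.333), with a 95% interval from -0.13 to 0.48. In the 72 h controls no array had LTB well above background, at -7.13, -7.73 and -7.94. With 6.0 μg/cm2 its levels of -6.11, -5.61 and -5.51 were all well above background, and with 3.0 μg/cm2 -5.98 was and -6.51 and -6.63 were not. The exposed and control groups did not overlap at 72 h. The mean was -5.74 with 6.0 μg/cm2 and -7.60 in the controls, so that LTB was at least 1.73-fold higher, with a fitted change of 1.86 (SE 0.25, limma, adjusted p = 0.00149). This direction depended on background subtraction. In the unsubtracted spot intensities the change was -0.06 (limma, adjusted p = 0.722), and with normexp it was 0.14 (limma, adjusted p = 0.125).

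TNFSF10 codes for TRAIL, the ligand that starts apoptosis through TNFRSF10A and TNFRSF10B. It was lower with 6.0 μg/cm2 at both times. At 24 h it stood at -5.89, -5.80 and -5.63 in the controls, at -6.70, -6.06 and -6.45 with 3.0 μg/cm2 and at -6.62, -6.53 and -6.95 with 6.0 μg/cm2. All arrays of this set were well above background for it at 24 h except the last. Neither exposed group overlapped the controls. The change was -0.63 (SE 0.16) with 3.0 μg/cm2, which was not called (limma, adjusted p = 0.0551), and -0.92 (SE 0.13) with 6.0 μg/cm2 (limma, adjusted p = 0.00237). The step from 3.0 to 6.0 μg/cm2 was -0.29 (SE 0.18) at 24 h and was not called (limma, adjusted p = 0.351), and those groups overlapped. The 24 h call was lost with normexp, where the sign turned, and in unsubtracted intensities.

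At 72 h the TNFSF10 controls were far closer together and higher, at -2.88, -2.91 and -2.89. The levels were -4.10, -4.30 and -4.31 with 3.0 μg/cm2 and -5.62, -6.06 and -6.03 with 6.0 μg/cm2, where replicate 2 was not well above background. The 3 groups were separate. TNFSF10 was 2.54-fold lower with 3.0 μg/cm2 (change -1.34, SE 0.07, limma, adjusted p = 0.000402) and 8.06-fold lower with 6.0 μg/cm2 (change -3.01, SE 0.12, limma, adjusted p = 2.64e-05). The step from 3.0 to 6.0 μg/cm2 was -1.67 (SE 0.14, limma, adjusted p = 0.0025). These 72 h calls held under every alternative run in which the probe was tested, but the fall with 6.0 μg/cm2 was smaller with normexp and in unsubtracted intensities.

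The second TNFSF10 probe fell likewise at 24 h with 6.0 μg/cm2, from -5.61, -5.32 and -5.48 to -7.09, -6.76 and -7.20, none of which was well above background, so that it was at least 2.51-fold lower (limma, adjusted p = 0.000404). With 3.0 μg/cm2 at 24 h its mean was -6.94 ± 0.89 against -5.47 ± 0.14 in the controls (SD, n = 3), without overlap, and 2 of these exposed arrays were well above background. With 3.0 μg/cm2 at 72 h its change was -1.48 (SE 0.09, limma, adjusted p = 0.000673). Its levels with 6.0 μg/cm2 at 72 h were -6.02, -2.03 and -5.40 against -3.19, -3.17 and -3.08 in the controls, and the change of -1.34 was not called (limma, adjusted p = 0.298). Replicate 2 alone read high at this probe, at -2.03, where the representative probe on the same array read -6.06.

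TNFSF15 codes for TL1A, a ligand of TNFRSF25. At 24 h its levels were -5.29, -4.87 and -4.48 in the controls, -5.46, -5.41 and -5.04 with 3.0 μg/cm2, and -5.42, -5.65 and -5.56 with 6.0 μg/cm2, all well above background. The lower of these dose groups overlapped the controls, and the 6.0 μg/cm2 group lay just below them. The change with 6.0 μg/cm2 was -0.66 (SE 0.20, limma, adjusted p = 0.04), a call that was lost with the slide as a block (limma, adjusted p = 0.0749) and without any 1 of the 3 exposed arrays or control replicate 2 or 3 (limma, adjusted p from 0.0603 to 0.11). It was also lost with the methods' t-test, with no filter on dim probes and in unsubtracted intensities, and its sign turned with normexp. At 72 h the levels were -3.60, -3.40 and -3.15 in the controls, -4.01, -4.36 and -4.07 with 3.0 μg/cm2, and -5.24, -5.83 and -5.72 with 6.0 μg/cm2, of which -5.83 was not well above background. The 3 groups did not overlap. TNFSF15 was 1.7-fold lower with 3.0 μg/cm2 (change -0.77, SE 0.15, limma, adjusted p = 0.0152) and 4.64-fold lower with 6.0 μg/cm2 (change -2.21, SE 0.18, limma, adjusted p = 0.000228). Without 72 h control replicate 2 the change with 3.0 μg/cm2 was -0.77 and no longer called (limma, adjusted p = 0.0622), nor was it with the methods' t-test or normexp. The 72 h fall with 6.0 μg/cm2 was smaller with normexp and in unsubtracted intensities.

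**Figure D2:**
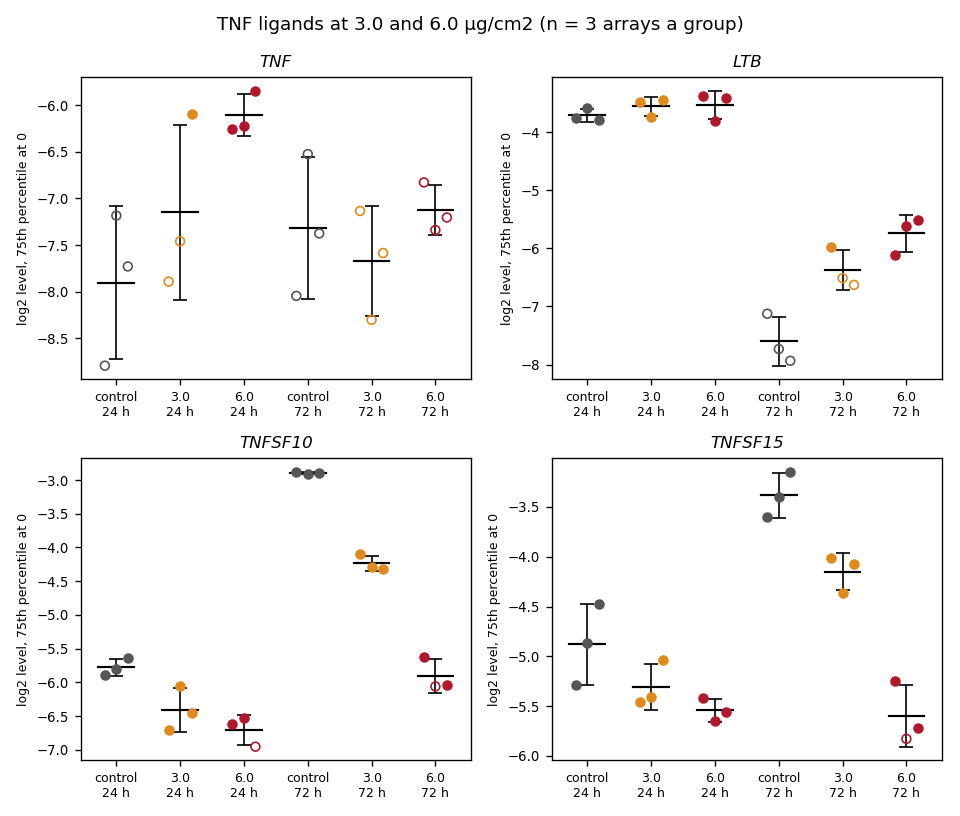
Levels of the 4 ligand genes on each array of the 3.0 and 6.0 μg/cm2 set (y axis, log2 with the 75th percentile of the array at 0). Filled points were well above background and open points were not, the horizontal line is the group mean and the bar is 1 SD (n = 3). TNFSF10 and TNFSF15 step down with dose at 72 h from higher controls, and LTB drops from 24 h to 72 h in the controls.

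Among the receptors, TNFRSF9 (CD137 or 4-1BB, a costimulatory receptor best known on activated T cells) was at background without NPs. None of the 14 control arrays had it well above background, nor did any of the 12 arrays at 0.1, 1.0 or 1.5 μg/cm2. At 24 h its levels in the controls of the higher doses were -7.06, -6.49 and -6.08. With 3.0 μg/cm2 they were -5.41, -5.24 and -5.20, and with 6.0 μg/cm2 they were -4.48, -4.74 and -4.35, all well above background. The 3 groups were separate and in the order of dose. TNFRSF9 was 2.39-fold higher with 3.0 μg/cm2 (fitted change 1.26, SE 0.23, limma, adjusted p = 0.0193). With 6.0 μg/cm2 it was 4.06-fold higher (fitted change 2.02, SE 0.24, limma, adjusted p = 0.00153), and the step between the doses was 0.76 (SE 0.11, limma, adjusted p = 0.0138). These folds are the fitted changes and no lower bounds, since they use the dim levels of the controls. The call at 3.0 μg/cm2 was lost without any 1 of its 3 exposed arrays or control replicate 2 (limma, adjusted p from 0.0615 to 0.076), and the step between the doses without 3.0 μg/cm2 replicate 1 or 2 (limma, adjusted p = 0.0547 and 0.0552). Both were also lost with the methods' t-test, with no filter on dim probes, with normexp and in unsubtracted intensities.

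At 72 h the TNFRSF9 controls stood at -8.17, -6.67 and -8.34, none well above background. With 3.0 μg/cm2 the levels were -5.66, -6.24 and -6.07, of which the first was well above background, and the probe was not tested. With 6.0 μg/cm2 they were -5.00, -5.23 and -4.96, all well above background and above every control, at least 2.77-fold higher (fitted change 2.66, SE 0.42, limma, adjusted p = 0.00313). From 3.0 to 6.0 μg/cm2 the change was 0.92 (SE 0.16, limma, adjusted p = 0.0165), lost without 6.0 μg/cm2 replicate 3 or without 3.0 μg/cm2 replicate 2 or 3 (limma, adjusted p from 0.0551 to 0.0677). It was also lost with the methods' t-test, normexp, no filter on dim probes, unsubtracted intensities and both fits of all groups at once. In unsubtracted intensities the change with 6.0 μg/cm2 was 0.43 at 24 h (limma, adjusted p = 0.0538) and -0.20 at 72 h (limma, adjusted p = 0.484), so the 72 h direction rested on background subtraction, and with normexp it was 0.73 and 0.08 and not called.

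TNFRSF12A (Fn14, the receptor of TWEAK) was well above background on all 38 arrays. At 24 h its levels were 4.88, 4.89 and 4.85 in the controls, 5.34, 5.36 and 5.37 with 3.0 μg/cm2, and 5.64, 5.65 and 5.67 with 6.0 μg/cm2. No array of one group reached the next. The change of 0.48 (SE 0.05) with 3.0 μg/cm2 had an adjusted p of 0.00211 (limma) but was a 1.4-fold change, under the threshold, and with 6.0 μg/cm2 the gene was 1.72-fold higher (change 0.78, SE 0.05, limma, adjusted p = 0.00013). At 72 h the levels were 4.18, 4.11 and 4.18 in the controls, 4.79, 4.84 and 4.85 with 3.0 μg/cm2, and 5.54, 5.49 and 5.63 with 6.0 μg/cm2, again without overlap. TNFRSF12A was 1.59-fold higher with 3.0 μg/cm2 (change 0.67, SE 0.05, limma, adjusted p = 0.00119, under the fold threshold with quantile normalization) and 2.63-fold higher with 6.0 μg/cm2 (change 1.40, SE 0.07, limma, adjusted p = 3.97e-05). Both 6.0 μg/cm2 calls held under every alternative run, background handling included. The representative probe of TNFSF12, which codes for TWEAK, was not called at any dose, with changes of 0.03 (SE 0.05) at 24 h and -0.46 (SE 0.06, limma, adjusted p = 0.00172) at 72 h with 6.0 μg/cm2. Another TNFSF12 probe was called lower at 72 h with 6.0 μg/cm2 (change -0.62, limma, adjusted p = 0.00289).

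TNFRSF10B, the death receptor for TRAIL known as DR5, moved little. At 24 h its levels were 2.62, 2.71 and 2.66 in the controls, 2.74, 2.77 and 2.72 with 3.0 μg/cm2, and 2.91, 3.01 and 2.98 with 6.0 μg/cm2. The arrays at both doses lay above the controls. The change with 6.0 μg/cm2 was 0.30 (SE 0.06), a 1.23-fold difference with an adjusted p of 0.00745 (limma) that missed the fold threshold. At 72 h the change with 6.0 μg/cm2 was 0.15 (SE 0.06, limma, adjusted p = 0.0866), with a 95% interval from 0.0037 to 0.29.

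TNFRSF1A, the broadly expressed receptor through which TNF signals in most tissues, was well above background on all 38 arrays. At 24 h its changes of -0.12 (SE 0.09) and -0.13 (SE 0.08) with 3.0 and 6.0 μg/cm2 were within the spread of the arrays. At 72 h its levels were 1.44, 1.51 and 1.52 in the controls, 1.18, 1.08 and 1.12 with 3.0 μg/cm2, and 1.20, 1.07 and 1.00 with 6.0 μg/cm2. Both exposed groups lay below the controls, by 0.36 (SE 0.05, limma, adjusted p = 0.00719) and 0.40 (SE 0.07, limma, adjusted p = 0.0055), and neither reached a fold change of 1.5. The exposed groups did not differ from each other beyond their spread, with a change of -0.03 (SE 0.07, 95% interval from -0.21 to 0.14).

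TNFRSF21 (DR6, a death-domain receptor) was not called at any dose. Its change with 6.0 μg/cm2 was 0.10 (SE 0.05, 95% interval from -0.03 to 0.23) at 24 h and 0.16 (SE 0.06, 95% interval from 0.02 to 0.30) at 72 h. TNFRSF1B, the TNF receptor found mainly on leukocytes and endothelium, was well above background on 4 of 38 arrays with its representative probe and on 0 of 38 with the other, and it was not tested in any comparison.

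**Figure D3:**
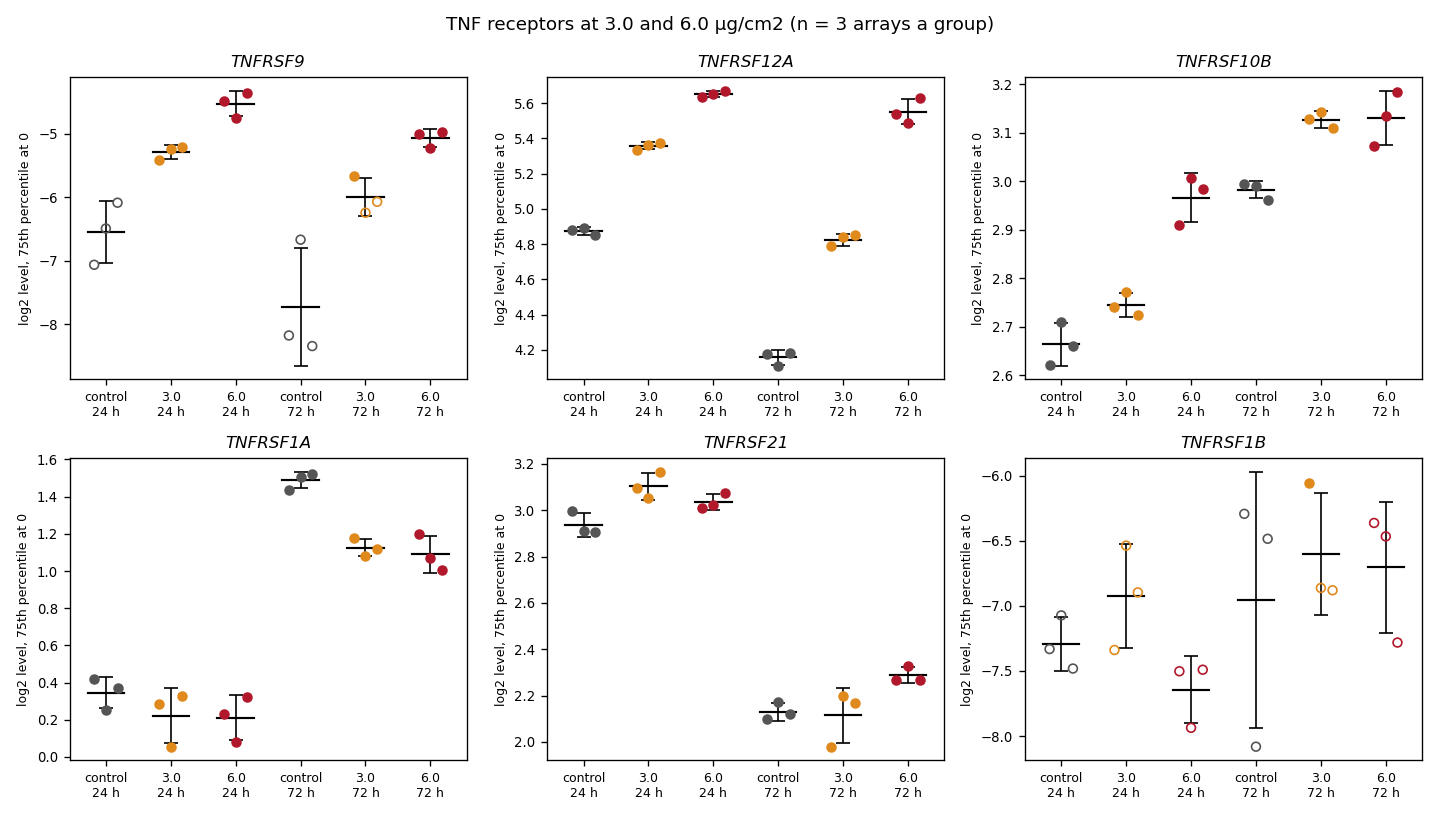
Levels of the 6 receptor genes on each array of the 3.0 and 6.0 μg/cm2 set (y axis, log2 with the 75th percentile of the array at 0). Filled points were well above background and open points were not, the line is the group mean and the bar is 1 SD (n = 3). TNFRSF12A rises with dose at both times without overlap, TNFRSF9 rises from open control points, and TNFRSF1B stays mostly open.

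At 24 h each slide of this set held 1 array of every dose, which allowed the difference to be taken within a slide. These differences at 6.0 μg/cm2 were 2.55, 0.97 and 1.88 for TNF, 2.58, 1.75 and 1.73 for TNFRSF9, and 0.76, 0.76 and 0.82 for TNFRSF12A. They were -0.73, -0.72 and -1.32 for TNFSF10 and -0.13, -0.78 and -1.08 for TNFSF15. Each of the 5 genes had 1 direction on all 3 slides. That was fixed in advance, since their exposed and control arrays did not overlap, and it adds no support. At 72 h no slide held exposed and control arrays together.

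Most tested members differed between 72 h and 24 h in cells that had no NPs, and the cause was not tested. Between the 72 h and the 24 h controls, 6 of 7 tested members were called (20.1% of all probes). TNFSF10 was 7.36-fold higher at 72 h (change 2.88, SE 0.07, limma, adjusted p = 1.64e-05), TNFSF15 2.82-fold higher (change 1.50, SE 0.22, limma, adjusted p = 0.00162) and TNFRSF1A 2.21-fold higher (change 1.14, SE 0.06, limma, adjusted p = 7.72e-05). LTB was at least 7.07-fold lower, but it entered this test only through the 24 h controls, so its call is no support for a fall. TNFRSF12A and TNFRSF21 fell by 0.72 and 0.81 (SE 0.05 and 0.06, limma, adjusted p = 0.000157 and 0.000139). The 72 h controls are also those of the 72 h exposures, so these differences share arrays with the changes above. All 6 calls held in every alternative that tested them, and LTB was not tested where every array had to be well above background.

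The difference between the responses at 72 h and at 24 h was tested as an interaction. With 6.0 μg/cm2, 4 members of 9 tested were called (17.2% of all probes). The fall of TNFSF10 at its representative probe was deeper at 72 h by 2.09 (log2 difference -2.09, SE 0.19, limma, adjusted p = 3.47e-05) and that of TNFSF15 by 1.55 (log2 difference -1.55, SE 0.29, limma, adjusted p = 0.00246). The rise of TNFRSF12A was larger at 72 h by 0.62 (SE 0.07, limma, adjusted p = 0.000135), and the fitted change of LTB was higher by 1.68 (SE 0.31, limma, adjusted p = 0.00193). The LTB value depends on 72 h controls not well above background and is no measured size. The rise of TNFRSF9 did not differ detectably between the times, with a difference of 0.64 (SE 0.55, limma, adjusted p = 0.386). The TNF response was lower at 72 h by a fitted 1.61 (log2 difference -1.61, SE 0.60), which was not called (limma, adjusted p = 0.0564). With 3.0 μg/cm2, LTB (1.07, SE 0.30) and TNFSF10 (-0.71, SE 0.20) were called of 8 tested (limma, adjusted p = 0.0331 and 0.0301, with 5.33% of all probes), and both calls were lost in most fits that left out 1 array. The second TNFSF10 probe was not called at either dose and fell about as far at 72 h as at 24 h. With 6.0 μg/cm2 at 72 h its replicate 2 read high. The LTB difference turned negative with normexp and in unsubtracted intensities at both doses, to between -0.28 and -0.02. The exposed 72 h arrays in these tests were scanned on another day than the rest.

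Between 3.0 and 6.0 μg/cm2, 1 member of 9 tested was called at 24 h (1.64% of all probes), TNFRSF9. At 72 h TNFRSF9, TNFRSF12A, TNFSF10 and TNFSF15 were called of 8 tested (4.85% of all probes), and TNFRSF9 entered this test only through the 6.0 μg/cm2 group. TNFSF10 and TNFSF15 entered it only through the 3.0 μg/cm2 group. TNFRSF12A rose by a further 0.73 (SE 0.06, limma, adjusted p = 0.00255) and TNFSF15 fell by a further 1.45 (SE 0.18, limma, adjusted p = 0.00569). LTB differed by 0.63 (SE 0.23), which was not called (limma, adjusted p = 0.113).

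At the lower doses none of the members was called. With 0.1 μg/cm2 limma called 0 of 7 tested and 0% of all probes, with 1 member at an unadjusted p under 0.05. With 1.0 μg/cm2 it called 0 of 7 and 0.00949% of all probes, with 2 such members, and with 1.5 μg/cm2 0 of 7 and 2.47% of all probes, with 1 such member. Over all probes, an unadjusted p under 0.05 was found for 2049 of 21698 with 0.1 μg/cm2, 3706 of 21081 with 1.0 μg/cm2 and 3507 of 21021 with 1.5 μg/cm2. At 1.5 μg/cm2 the share of all probes called dropped to 0.263% with replicates 1 to 3 only and to 0.438% with pairs of replicates as a random block. The methods' t-test also called 0 members at each of these doses. LTB came nearest with 1.0 μg/cm2, at -5.11, -5.34, -5.45 and -5.64 against -6.64, -6.42, -6.11 and -6.11 in the controls. The first 2 of these controls were not well above background. The groups did not overlap in the processed signal, but they did with normexp and in unsubtracted intensities. The change of 0.93 (SE 0.15) had an adjusted p of 0.0783 (limma), and the probe entered this test only through the exposed group. With 1.5 μg/cm2 LTB was at -4.69, -4.74, -4.75 and -4.83 against -4.95, -5.50, -4.63 and -4.80, and the groups overlapped (change 0.22, SE 0.17, limma, adjusted p = 0.586).

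TNFSF15 was lower with 0.1 μg/cm2, at -3.12, -3.10, -3.30 and -3.28 against -2.88, -2.81, -2.45 and -2.51, without overlap (change -0.54, SE 0.12, limma, adjusted p = 0.236). With 1.0 μg/cm2 it stood at -2.04, -2.24, -2.88 and -2.92 and overlapped the same controls. With 1.5 μg/cm2 the change was 0.43 (SE 0.16, limma, adjusted p = 0.231), the opposite sign to that at 0.1 μg/cm2. At 1.0 μg/cm2 replicates 1 and 2 lay close together, and so did replicates 3 and 4.

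**Figure D4:**
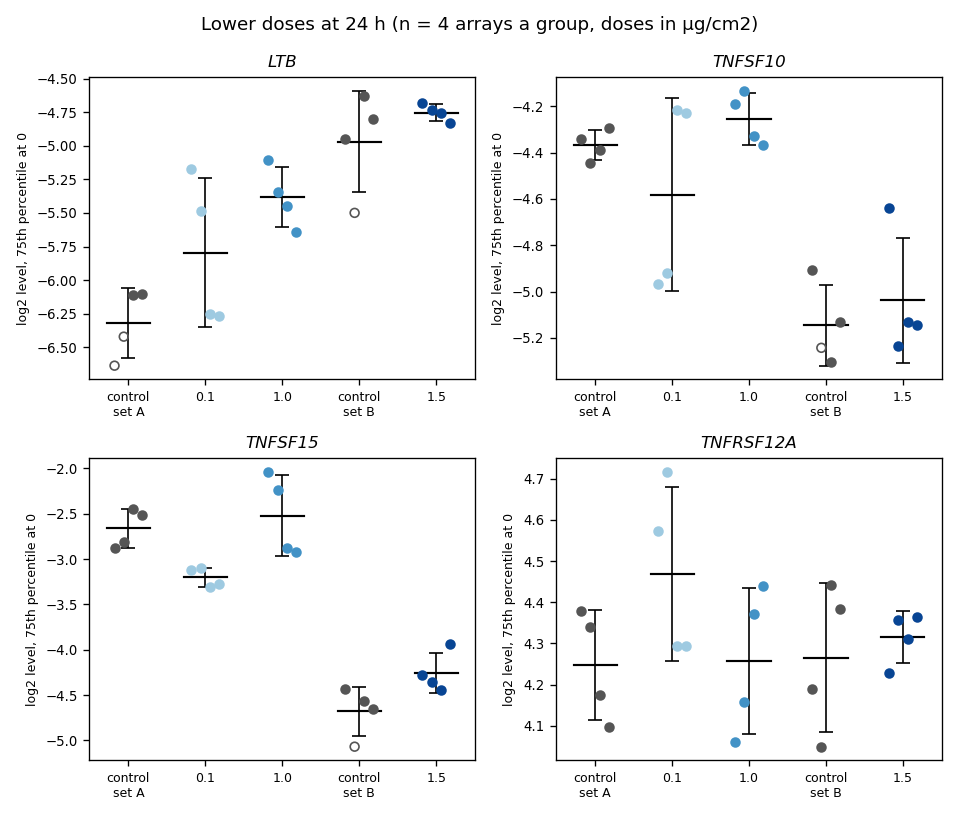
Levels of LTB, TNFSF10, TNFSF15 and TNFRSF12A on each array at 0.1, 1.0 and 1.5 μg/cm2 with their controls (y axis, log2 with the 75th percentile of the array at 0; points, lines and bars as for the higher doses, n = 4). Points of a group tend to fall in pairs, and no group was called against its controls.

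The dim members were the ones whose values moved with background handling. TNFSF10, TNFSF15, TNFRSF9, LTB and TNF had levels below 0 throughout, and TNFRSF12A above. With normexp, 6.0 μg/cm2 replicate 3 at 24 h read -2.87 for TNFSF10 where replicates 1 and 2 read -3.93 and -3.82, and -2.57 for TNFRSF9 against -3.48 and -3.43. The 24 h change of TNFSF10 with 6.0 μg/cm2 was then 0.24 (limma, adjusted p = 0.594), and with that array left out -0.09 (limma, adjusted p = 0.509). That of TNFSF15 was 0.13 (limma, adjusted p = 0.768), and -0.17 without the array. With 6.0 μg/cm2 at 72 h, the falls of TNFSF10 and TNFSF15 stayed called with normexp and in unsubtracted intensities but were smaller. With normexp TNFSF10 read -2.385, -2.331 and -2.351 in the 72 h controls and -3.597, -3.817 and -3.876 with 6.0 μg/cm2. TNFSF15 read -2.791, -2.567 and -2.403 in these controls and -3.444, -3.761 and -3.705 with 6.0 μg/cm2. The local background, on the scale of the levels, lay between -5.72 and -5.44 in the 24 h controls, -5.75 and -5.44 with 6.0 μg/cm2 at 24 h, -5.35 and -5.04 in the 72 h controls and -5.45 and -5.12 with 6.0 μg/cm2 at 72 h. These ranges overlapped within each time, and their part in the dim members' changes was not tested.

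**Figure D5:**
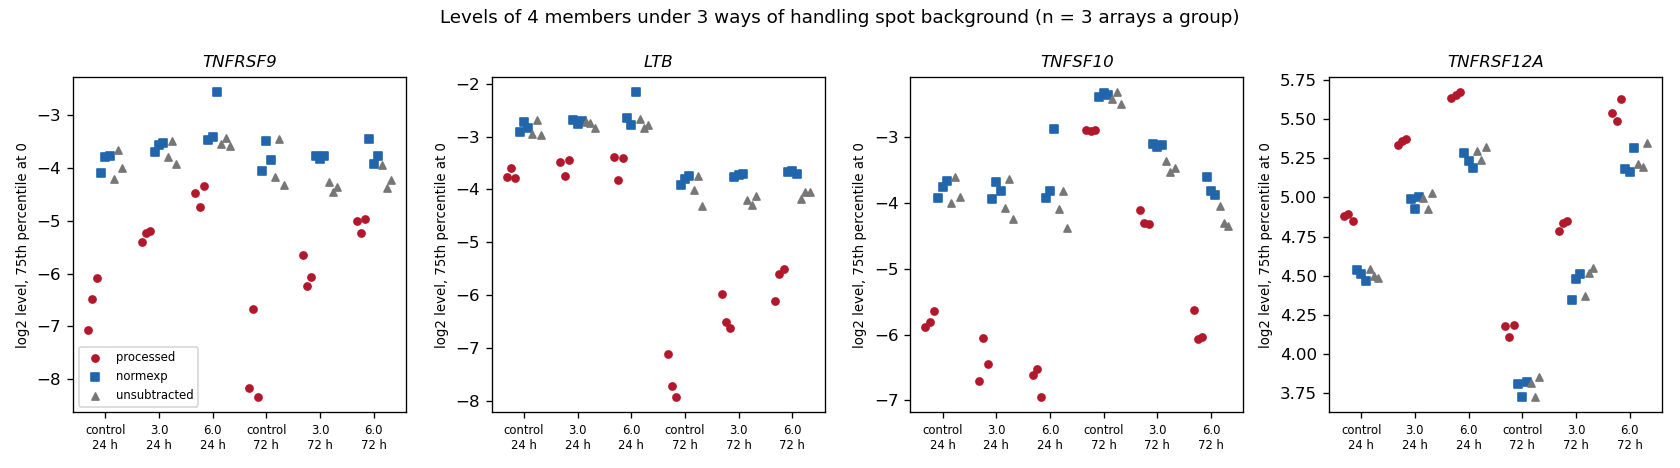
Levels of TNFRSF9, LTB, TNFSF10 and TNFRSF12A from the processed signal (circles), with normexp (squares) and from unsubtracted spot intensity (triangles), each scaled to the array's 75th percentile (y axis, log2; n = 3). The dose steps of TNFRSF9 and LTB flatten without the scanner's subtraction, while those of TNFSF10 at 72 h and of TNFRSF12A remain.

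The rest of the family was followed in 14 other ligands and 23 other receptors. At 24 h with 6.0 μg/cm2, 1 of the 6 ligands tested was higher, beside 3.95% of all probes. This was TNFSF9, the ligand of TNFRSF9, which rose from -0.85 ± 0.08 to -0.13 ± 0.15 (SD, n = 3), a 1.64-fold change (limma, adjusted p = 0.00177). At 72 h with 6.0 μg/cm2 TNFSF9 did not rise, at -0.82 against -0.50 in the controls, and its responses at the 2 times differed by -1.04 (SE 0.12, limma, adjusted p = 0.000112). At 72 h, 2 of 7 ligands tested were lower with 6.0 μg/cm2 (10.5% of all probes), TNFSF14 (LIGHT) by 1.45 on the log2 scale (SE 0.12, limma, adjusted p = 0.000202) and TNFSF13 (APRIL) by 0.97 (SE 0.13, limma, adjusted p = 0.00151). The same 2 were lower with 3.0 μg/cm2 (3.8% of all probes lower), by 0.80 and 0.67. The TNFSF13 call there was lost without any 1 of the exposed arrays or control replicate 1 or 2. The median change of the ligands tested was -0.01 at 24 h and -0.32 at 72 h.

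Of the other receptors, 1 of 16 tested was called with 6.0 μg/cm2 at 24 h and 2 of 15 at 72 h, beside 9.32% and 17.1% of all probes. TNFRSF11B, the soluble decoy osteoprotegerin, was 2.19-fold lower at 24 h (change -1.13, SE 0.12, limma, adjusted p = 0.000941) and 2.22-fold lower at 72 h (change -1.15, SE 0.20, limma, adjusted p = 0.00412). Its 24 h change was 0.10 with normexp and -0.37 in unsubtracted intensities, and not called in either. CD40, the receptor through which CD40 ligand activates epithelial and antigen-presenting cells, was 1.51-fold lower at 72 h (change -0.60, SE 0.07, limma, adjusted p = 0.00102), and it fell under the fold threshold without exposed replicate 1 or control replicate 1, with quantile normalization and with both other background settings. FAS, the receptor of FAS ligand, had changes of -0.03 (SE 0.07) at 24 h and 0.05 (SE 0.07) at 72 h. TNFRSF10A, the other death receptor for TRAIL, was higher by 0.35 (SE 0.06) at 24 h and 0.47 (SE 0.10) at 72 h, under the fold threshold at both times. The median over the receptors tested was 0.06 at 24 h and -0.02 at 72 h.

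Of 26 genes acting next to the receptors, all 26 were tested and 4 were higher with 6.0 μg/cm2 at 24 h (3.95% of all probes) and 0 lower (5.37%). TNFAIP3 (A20, a deubiquitinase that restrains NF-kB) was 2.94-fold higher (change 1.56, SE 0.11, limma, adjusted p = 0.000212). TRAF1, a TRAF adaptor, was 2.72-fold higher (change 1.44, SE 0.16, limma, adjusted p = 0.00124), and BIRC3 (cIAP2, a ubiquitin ligase of the receptor complex) was 2.57-fold higher (change 1.36, SE 0.06, limma, adjusted p = 5.55e-05). RBCK1 (HOIL-1, a subunit of the linear ubiquitin chain assembly complex) was 1.9-fold higher, and its 2 other tested probes were called too. The same 4 were called with 3.0 μg/cm2 at 24 h (1.49% of all probes higher), with changes of 0.72, 0.86, 0.75 and 0.68 in that order. The other RBCK1 probes (0.54 and 0.51) were under the fold threshold there.

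At 72 h with 6.0 μg/cm2, 3 of these 26 were higher (6.63% of all probes) and 0 lower (10.5%). MAP3K14 (NIK, the kinase of the noncanonical NF-kB route) was 2.72-fold higher (change 1.44, SE 0.09, limma, adjusted p = 8.11e-05), where at 24 h it was not called, and its responses differed by 1.08 (SE 0.11, limma, adjusted p = 8.18e-05). BIRC3 was 1.68-fold higher and TNFAIP3 1.5-fold higher, and the TNFAIP3 change of 0.59 became 0.07 with normexp and -0.09 in unsubtracted intensities, and its call was lost without exposed replicate 1 or control replicate 1 or 2. TRAF1 was not called at 72 h (change 0.25, SE 0.15), and its responses differed by -1.19 (SE 0.24, limma, adjusted p = 0.00359). The first adaptors of the death-domain receptors, TRADD, FADD and RIPK1, were not called at either time, with changes of 0.14, 0.03 and -0.14 at 24 h. The median over the 26 genes was 0.08 at 24 h and 0.02 at 72 h. In the 250 bases before the start, 4 of the 23 of these genes with an entry held a kappaB match, ADAM17, BIRC3, TNFAIP3 and TRAF3.

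Of 13 genes of the death arm, 12 were tested. With 6.0 μg/cm2 at 24 h, MLKL, the pore-forming effector of necroptosis, was 1.84-fold higher (change 0.88, SE 0.06, limma, adjusted p = 0.000172) and 0 others were called. Over all probes 9.32% were called at 24 h and 17.1% at 72 h. At 72 h 0 representative probes were called, and another probe of BAX, a pore-forming member of the BCL2 family, was called higher (change 0.82, limma, adjusted p = 0.000236) where its representative probe changed by 0.10. CFLAR (cFLIP, which blocks caspase-8) had changes of 0.52 (SE 0.07) and 0.46 (SE 0.07) at the 2 times, with adjusted p of 0.0024 and 0.00245 (limma) and under the fold threshold. CASP8, the initiator caspase of the death receptors, had changes of 0.12 at 24 h and 0.02 at 72 h.

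Of the 5 leukocyte markers with a probe, 3 were tested with 6.0 μg/cm2 at each time, and 1 was higher and 2 lower at 24 h and 1 higher and 1 lower at 72 h. Over all probes, 3.95% were higher and 5.37% lower at 24 h, and 6.63% higher and 10.5% lower at 72 h, which also stands beside the other marker counts below. The median change of the 3 leukocyte markers tested was -0.63 at 24 h and 0.13 at 72 h. The summed level of the 5, set mostly by the brightest of them, CD14 and CD68, also differed between these groups. It lay between -0.87 and -0.81 in the 24 h controls and between 0.57 and 0.71 with 6.0 μg/cm2, and between 1.54 and 1.61 in the 72 h controls and 0.64 and 0.79 with 6.0 μg/cm2. CD3E, which defines T cells, was well above background on 7 of 38 arrays. The summed level of 4 fibroblast markers lay between -2.17 and -1.78 in the 24 h controls and -3.68 and -3.30 with 6.0 μg/cm2, and between -2.44 and -2.29 and -4.16 and -3.70 at 72 h. Of 2 fibroblast markers tested, 1 was lower at 24 h and 2 at 72 h, while COL1A2 was well above background on 0 of 38 arrays and DCN on 1. Of 5 epithelial markers, 1 was higher and 2 lower at 24 h and 2 lower at 72 h with 6.0 μg/cm2, and their sum lay between 8.34 and 8.47 in the 24 h controls and 8.26 and 8.33 with 6.0 μg/cm2, and between 8.52 and 8.70 and 8.20 and 8.39 at 72 h. The part of these markers in the members' changes was not tested.

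The genes most like TNFRSF9 over the 18 arrays of the higher-dose set, among probes well above background on all of them, were BMAL2 (Pearson r = 0.942), CITED4 (0.932) and FRMD5 (0.925). Those most like TNFSF10 were DLG3 (0.99), FGFR2 (0.987) and FCGBP (0.987). These are descriptions over arrays that share doses, times and scan days, and TNFRSF9 was well above background on 10 of the 18 and TNFSF10 on 16.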

How the data were processed

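Total RNA of A549 cells was measured on 38 one-colour arrays of 34127 probes. Per the file headers, spot intensity was extracted with Agilent Feature Extraction 10.10.1.1 or 11.0.1.1, and the processed intensity, deposited by the authors, had the scanner software's background subtracted. The deposited series table equalled the median spot intensity without subtraction and was used only as an alternative. The number of arrays limits the precision.

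Log2 processed signals were scaled to the 75th percentile of each array, without control and flagged spots and with replicate spots averaged. Each dose was tested against the controls of its set with limma 3.58.1 (R 4.3.3, Benjamini-Hochberg over all tested probes, threshold 0.05 with at least a 1.5-fold change), and times by an interaction. On simulated data, 95% of 200 probes changed by 1.5 (log2) were called in the 6.0 μg/cm2 comparison at 24 h, with 4 of the unchanged called among 22174. In the 6.0 μg/cm2 interaction 85% were called. Every simulated probe was taken as well above background and the arrays as independent, so these shares do not cover dim members.

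Named genes were all members and, per family list, up to 6 of the called genes with the largest change at 6.0 μg/cm2 at each time, plus the 3 genes most correlated with the rising and the falling member of largest change at 24 h. TNFSF12, FAS, TNFRSF10A, TRADD, FADD, RIPK1, CFLAR, CASP8 and the genes named for a promoter match fall outside this rule and were chosen after their values were seen. Members and lists were chosen with earlier results of these data known. Replicate numbers paired the samples, by correlated deviations (0.152 to 0.602 in every pair), only between 3.0 and 6.0 μg/cm2. Alternatives covered background correction, normalization, filters, the methods' t-test, blocks and leaving out arrays. Promoters came from RefSeq.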

Additional observations from a re-analysis of the deposited data

Results flagged for a closer look

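In the second TNFSF10 probe, 1.5 μg/cm2 replicate 2 read -5.06 while the other 3 arrays of the group lay between -5.25 and -5.24. It was the 1 lone array among 60 combinations of probe and group checked, all in groups of 4, where chance gives about 1 in 20. Groups of 3 were not checked, and in one of them the same probe read -2.03 in 6.0 μg/cm2 replicate 2 at 72 h against -6.02 and -5.40.

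Responses that differed between 72 h and 24 h were listed at an adjusted p under 0.05 by limma's interaction test, without the fold threshold. At 3.0 μg/cm2 they were those of LTB, TNFSF10 and TNFRSF12A, with log2 differences of 1.07, -0.71 and 0.18, the last not called. At 6.0 μg/cm2 they were those of LTB, TNFSF10, TNFSF15 and TNFRSF12A, with log2 differences of 1.68, -2.09, -1.55 and 0.62. The second TNFSF10 probe gave -0.01 and 0.21 and was not called at either dose. Scan day and 72 h exposure cannot be told apart in these values.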

How the results depend on the processing

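Of 526 alternative values of the 31 called member changes, 445 kept direction and call, 73 lost the call and 8 turned sign. Member counts moved by over 1.5 times as follows, against 1 with 3.0 μg/cm2 and 5 with 6.0 μg/cm2 at 24 h, 5 with 6.0 μg/cm2 at 72 h, 1 and 4 between the doses at 24 and 72 h, and 2 and 4 interactions at 3.0 and 6.0 μg/cm2. With the methods' t-test they were 0 with 3.0 and 3 with 6.0 μg/cm2 at 24 h, and 0 between the doses at 24 h, beside 1.95%, 7.79% and 0.777% of all probes. With normexp they were 0, 1 and 3 with 3.0 and 6.0 μg/cm2 at 24 h and 6.0 μg/cm2 at 72 h, 0 between the doses at 24 h and 1 for the 3.0 μg/cm2 interaction, beside 1.03%, 3.62%, 9.05%, 0.0903% and 2.45% of all probes, and with 6.0 μg/cm2 replicate 3 also left out at 24 h, an alternative chosen after seeing the data, 1 (3.95%). In unsubtracted intensities the same 5 counts were 0, 1, 3, 0 and 1, beside 1.05%, 4.23%, 14.7%, 0.416% and 4.43%. Quantile normalization gave 2 with 3.0 μg/cm2 at 24 h (2.84%). With no filter on dim probes, 0 remained with 3.0 μg/cm2 and between the doses at 24 h and 0 for the 3.0 μg/cm2 interaction (1.61%, 0.513% and 2.87%). Requiring every array to be well above background left 2 and 1 with 6.0 μg/cm2 at 24 and 72 h, 1 between the doses at 72 h and 1 for each interaction (8.25%, 14.9%, 4.28%, 5.33% and 16.7%). Without the fold threshold there were 2 with 3.0 μg/cm2 and 3 between the doses at 24 h (12.2% and 9.03%), and with all groups in 1 fit 2 and 0 (2.71% and 1.44%).

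With normexp the change turned to 0.24 for TNFSF10, 0.13 for TNFSF15 and 0.10 for TNFRSF11B with 6.0 μg/cm2 at 24 h, to 0.15 for TNFRSF11B between the doses at 24 h, and to -0.024 and -0.15 for the LTB interactions at 3.0 and 6.0 μg/cm2. In unsubtracted intensities it turned to -0.063 for LTB, -0.20 for TNFRSF9 and -0.094 for TNFAIP3 with 6.0 μg/cm2 at 72 h, and to -0.28 and -0.17 for the LTB interactions. The cause was not tested.

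Leaving out 1 array gave 0 to 1 and 3 to 5 calls with 3.0 and 6.0 μg/cm2 at 24 h, 2 to 3 and 5 at 72 h, 0 to 2 and 3 to 4 between the doses at 24 and 72 h, 6 between the controls, 0 to 1 and 3 to 5 for the interactions, and 0 at the lower doses. Between the doses at 24 h, TNF was gained (change 1.57) without 3.0 μg/cm2 replicate 3. The TNFRSF12A interaction at 6.0 μg/cm2 fell under the fold threshold without 72 h exposed replicate 3 (0.58) and with quantile normalization (0.41). With the replicate number as a block, 4 members were called with 6.0 μg/cm2 at 24 h, where TNFSF15 was lost, and no other member's call changed in the dose comparisons, the ones run with that block. The methods' t-test was not run for interactions, and a random slide block could not be fitted for exposure against control at 72 h alone. Dim probes near background limit TNF, TNFRSF1B, TNFRSF9 and LTB.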
